A study of Mus musculus with 9 samples.

Results

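The 37 genes described here encode enzymes that make, use and recycle glutathione, remove peroxides and superoxide, or set the transcription of these enzymes. They were chosen by gene symbol, and all 37 were found among the 54532 genes of the deposited table. All of them also passed the expression filter, which left 15416 genes tested. Duodenal RNA came from male C57BL/6 mice on regular chow for 3 months. There were 4 control libraries (WT) and 5 from age-matched mice labelled Pla2g12b mutant, and Pla2g12b is a secreted phospholipase A2 family gene needed for loading lipoproteins with lipid. C129Y is named in the series title as a dominant negative change. Which change these mice carried, in how many copies, and how old they were is not stated in the labels.

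Glutathione is a small thiol made from glutamate, cysteine and glycine. Glutathione transferases (GST) attach it to reactive compounds, glutathione peroxidases (GPX) spend it to reduce peroxides, and glutathione reductase restores it. Peroxiredoxins reduce peroxides with electrons passed on by thioredoxin. The transcription factor NRF2, encoded by Nfe2l2 and held back by KEAP1, switches on many of these genes when cells meet electrophiles or oxidants. Enterocytes of the small intestine are rich in GSTs, and gamma-glutamyl transferase on their brush border breaks down glutathione outside the cell.

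The 9 libraries held 16119639 to 24009157 reads in genes. Both genotypes held libraries that were nearly alike. These close pairs were WT 1 and 2, WT 3 and 4, mutants 2 and 3, and mutants 4 and 5, while mutant 1 stood apart. The biological coefficient of variation was 0.037 to 0.0504 within these 4 pairs and 0.178 to 0.253 in the 12 other pairs of a genotype. Counts within a close pair still differed by more than sampling, with a chi-square per degree of freedom of 2.32 to 3.35, and the labels number the mice separately. All 9 libraries were therefore kept, and n counts libraries. Beyond these mouse numbers, the labels do not describe how the libraries of a close pair were made, so p-values may measure technical spread in part. Each call below is set beside a fit with close pairs summed, which leaves 2 WT units and 3 mutant units.

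Markers of several cell types differed between the genotypes. Levels are given as CPM, counts scaled for the size of each library. The sum of 19 pancreatic acinar markers ran from 39764.9 to 85829.6 CPM in WT and from 220.5 to 1255.0 CPM in mutants, in which Reg2 was at 0 reads. Most of the mutant sum was Reg1, at 689.4 ± 513.6 CPM (SD, n = 5). All 7 tested plasma and B cell markers, all 11 macrophage and dendritic cell markers, all 8 goblet cell markers, all 6 Paneth cell markers and 6 of 7 fibroblast markers were lower in mutants. The summed plasma and B cell markers held 1122.0 to 1307.7 CPM in WT and 242.7 to 615.4 CPM in mutants. For macrophage and dendritic cell markers the sums were 442.6 to 493.5 and 51.6 to 90.8 CPM, and for fibroblast markers 243.8 to 266.8 and 54.5 to 144.9 CPM. Goblet cell markers summed to 7381.5 to 7578.4 CPM in WT and 1018.9 to 1990.7 CPM in mutants, and Paneth cell markers to 1487.1 to 4076.5 and 133.0 to 277.9 CPM. All 6 tested tuft cell markers were higher. The 10 enterocyte markers summed to 30905.0 to 34162.0 CPM in WT and 32889.8 to 48368.5 CPM in mutants. Of these 10 markers, 3 were called higher and none lower, with a median log2 fold change of 0.17. The part of enterocytes in the higher antioxidant genes described below was not tested. All 5 duodenal markers were detected and none was called, with a median log2 fold change of -0.98. Gata4 held 170.1 ± 3.93 CPM (SD, n = 4) in WT against 156.5 ± 14.5 CPM (SD, n = 5) in mutants. Slc40a1 held 187.4 ± 190.0 and 55 ± 62.5 CPM, Pdx1 31.4 ± 17.2 and 15.9 ± 14.6 CPM, and Cybrd1, the duodenal ferric reductase, 3.89 and 1.91 CPM. Both tested Brunner gland markers were lower in mutants. That list summed to 63 to 165.6 CPM in WT and 0.955 to 1.34 CPM in mutants. In such bulk RNA, fewer cells of a type and less RNA per cell cannot be told apart. Whether the samples matched in duodenal region, or held pancreatic tissue, was not tested.

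Cytosolic and mitochondrial peroxiredoxins, thioredoxin and the selenium-dependent peroxidases Gpx1 and Gpx4 were higher in mutant duodenum, while the secreted peroxidase Gpx3 and the endoplasmic reticulum peroxiredoxin Prdx4 were lower. Of the 37 genes, 14 were higher and 3 lower at an edgeR adjusted p under 0.05. These are 37.8% and 8.11% of the genes, against 15.4% higher and 17.1% lower among all 15416 tested genes. Shares over all tested genes, here and below, were not matched for expression level, and small changes are called more easily at high counts. By CPM per kilobase most of the 37 genes ranked high, though Gsta3 had rank 10459 and Slc7a11 rank 15367. The median log2 fold change, mutant over WT, was 0.18 for the 37 genes and 0.01 for all tested genes. Mutant and WT libraries did not overlap for 11 genes that were higher and 3 that were lower, where the shares over all tested genes were 14.4% and 16.5%. These 3 were Gpx3, Prdx4 and Slc7a11, of which Slc7a11 was not called, while the called gene Gsta3 overlapped. With close pairs summed, 2 of the 37 genes were called higher (Prdx1 and Mgst1) and 2 lower (Gpx3 and Prdx4), beside 2.23% higher and 6.78% lower over the 17295 genes then tested. The median of the 37 genes was 0.23 in that fit. A voom fit in which the close pair was a random block called 12 of them higher and 2 lower, beside 7.6% and 10.7% of all tested genes.

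**Figure D1:**
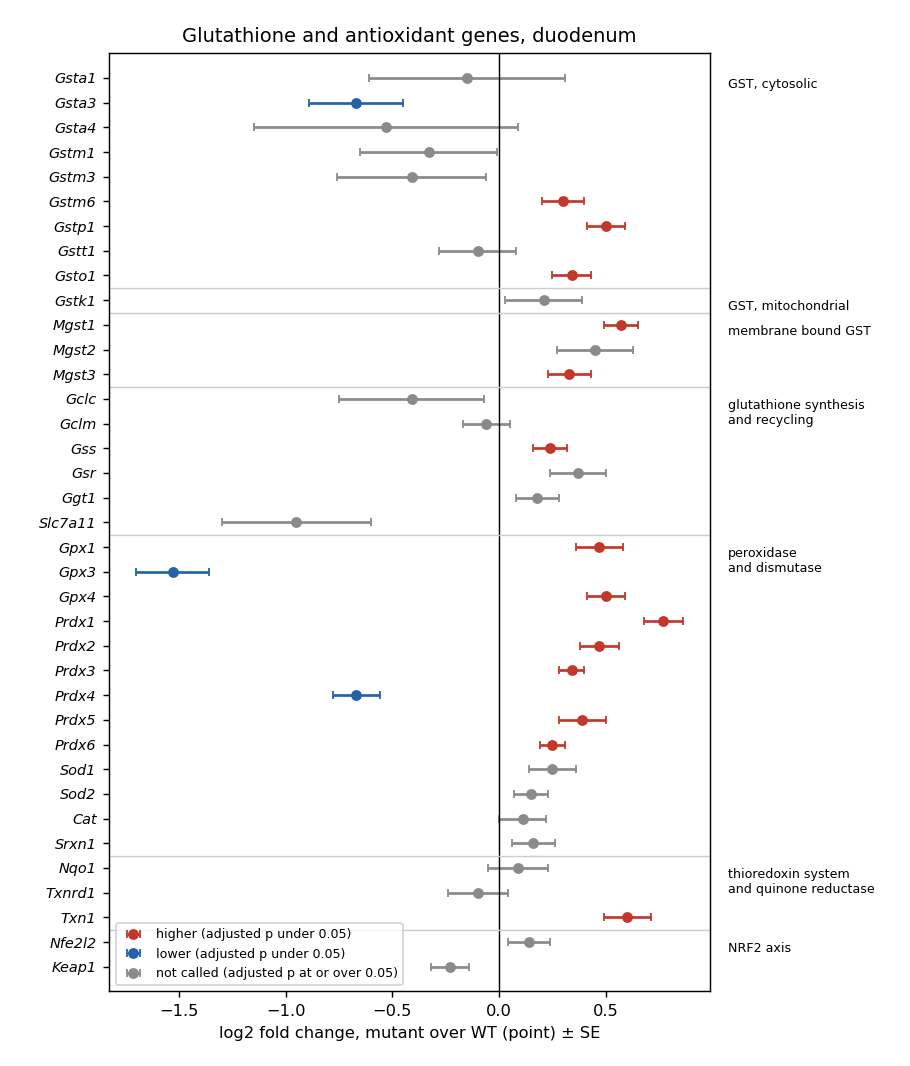
Log2 fold change of the 37 genes, mutant over WT (horizontal axis, points), with standard errors from the edgeR fit over 9 libraries (bars), ordered by role (labels at right; GST, glutathione transferase). Red points are the 14 genes called higher, blue points the 3 called lower (Gsta3, Gpx3 and Prdx4), and grey points the 20 that were not called.

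Fold changes over all genes moved with gene length, and the 37 genes are short. Their median length in the deposited table was 2139 bases, against 3976 bases for all tested genes. Spearman's rho between fold change and length was -0.35 over 8631 genes at 10 CPM or more on average, a relation across genes, which are not independent replicates. An offset for length in each library brought rho to -0.03. With it, 12 of the 37 genes were higher and 3 lower, with a median of 0.14, beside 15.1% and 16% of all tested genes. Among the called genes its effect was largest on the shortest, Gstp1, whose log2 fold change went from 0.50 to 0.28. The calls of Gstm6, Gsto1 and Mgst3 were lost (adjusted p = 0.18, 0.067 and 0.24). Sod2, among the longest of these genes, was called higher with it, at 0.29 (adjusted p = 0.043).

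**Figure D2:**
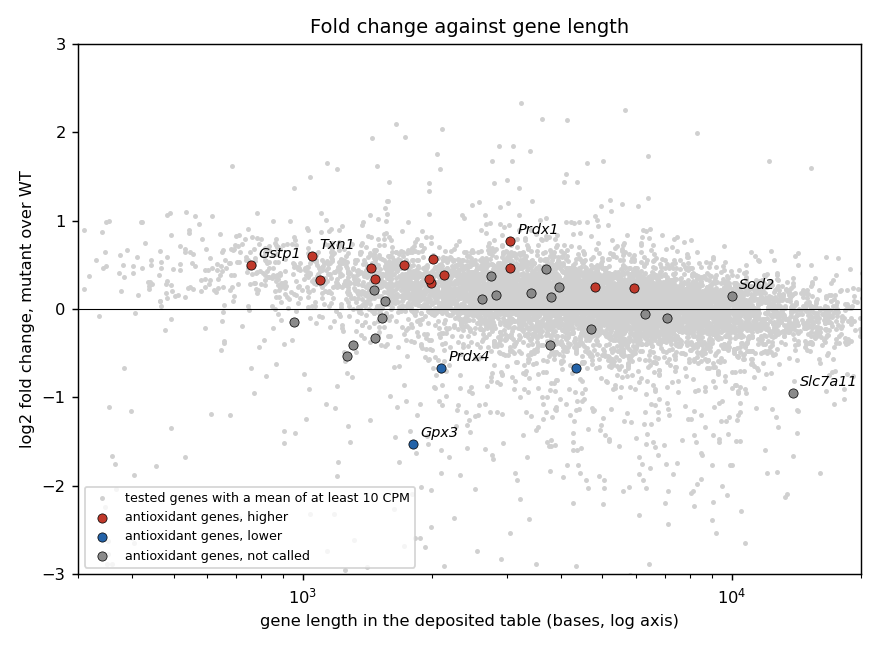
Log2 fold change, mutant over WT (vertical axis), against gene length in bases (horizontal log axis). Grey points are tested genes that average 10 CPM or more, and those beyond the axes are not drawn. Coloured points are the 37 antioxidant genes by call. Prdx1, at 0.77, is the highest coloured point and Gpx3, at -1.53, the lowest.

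NRF2 with small MAF proteins binds the antioxidant response element, whose core is TGACNNNGC. That core was searched on both strands in windows from 250 bases before to 50 bases after each gene start, taken from RefSeq on GRCm38.p6. Windows were found for 33 of the 37 genes, and 9 genes (27.3%) held a match in at least 1 window. The share among all 27025 genes with a window was 14%. By window, 11 of 45 (24.4%) held a match, against 12.4% of all 32851 windows. The 9 genes were Gclm, Ggt1, Gsta3, Mgst1, Nfe2l2, Prdx1, Sod1, Srxn1 and Txnrd1. They had different outcomes: Prdx1 and Mgst1 were called higher, Gsta3 lower, and the other 6 were not called. To show this contrast, 4 windows are printed, for the genes called higher and for 2 that were not, with the match in capitals. The windows are chr4:116685349-116685648 for Prdx1, chr6:138140277-138140576 for Mgst1, chr3:122245307-122245606 for Gclm and chr10:82858956-82859255 for 1 of 3 Txnrd1 starts, all on the plus strand. All 4 matches read as the reverse complement of the core. Those of Prdx1 and Gclm begin 133 and 134 bases before the start, and those of Mgst1 and Txnrd1 56 and 92 bases before it. The Prdx1 match also contains TGAGTCA, the letters of the AP-1 motif. A match describes letters, not a bound site.
Prdx1: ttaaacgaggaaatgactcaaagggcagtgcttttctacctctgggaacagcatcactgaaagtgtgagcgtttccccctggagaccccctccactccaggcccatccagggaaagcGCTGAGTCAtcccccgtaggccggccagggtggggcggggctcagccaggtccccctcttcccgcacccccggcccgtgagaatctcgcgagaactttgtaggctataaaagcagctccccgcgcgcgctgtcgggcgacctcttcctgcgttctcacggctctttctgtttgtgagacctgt
Mgst1: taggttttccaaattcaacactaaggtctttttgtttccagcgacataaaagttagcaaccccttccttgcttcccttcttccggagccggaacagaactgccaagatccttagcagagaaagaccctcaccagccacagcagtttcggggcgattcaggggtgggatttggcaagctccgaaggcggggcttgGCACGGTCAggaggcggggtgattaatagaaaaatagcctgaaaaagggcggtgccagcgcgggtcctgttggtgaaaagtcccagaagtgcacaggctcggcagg
Gclm: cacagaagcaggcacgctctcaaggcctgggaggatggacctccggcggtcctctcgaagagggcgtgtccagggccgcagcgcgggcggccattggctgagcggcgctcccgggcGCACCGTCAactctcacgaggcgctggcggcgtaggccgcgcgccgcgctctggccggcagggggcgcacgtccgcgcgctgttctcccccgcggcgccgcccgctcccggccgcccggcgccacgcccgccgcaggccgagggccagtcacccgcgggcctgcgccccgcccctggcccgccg
Txnrd1: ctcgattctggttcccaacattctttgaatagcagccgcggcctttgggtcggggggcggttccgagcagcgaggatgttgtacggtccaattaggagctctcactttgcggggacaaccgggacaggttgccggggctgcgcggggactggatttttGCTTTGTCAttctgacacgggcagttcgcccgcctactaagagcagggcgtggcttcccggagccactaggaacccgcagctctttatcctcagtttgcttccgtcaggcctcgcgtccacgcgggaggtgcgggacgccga

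Of the 6 peroxiredoxin genes, 5 were higher and 1 lower. Prdx1 (ENSMUSG00000028691, chromosome 4, 116685544 to 116700822, plus strand, GRCm38), the main cytosolic peroxiredoxin, held 587.6, 561.1, 587.0 and 590.0 CPM in WT 1 to 4. In mutants 1 to 5 it held 1020.1, 873.7, 904.6, 1093.3 and 1059.3 CPM. Every mutant library lay above every WT library, and the WT libraries were nearly level. The log2 fold change was 0.77 (SE 0.09, adjusted p = 7.8e-05), a fold of 1.7, and the call held with close pairs summed (adjusted p = 0.023). It was the largest rise among the 37 genes. With length offset and summed pairs together, Prdx1 was the 1 gene of the 37 still called higher, beside 1.7% of all genes, and Gpx3 and Prdx4 were called lower, beside 6.6%.

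Prdx2, the second cytosolic form, is also the peroxiredoxin of red blood cells. It held 154.9, 147.9, 131.7 and 130.2 CPM in WT and 198.5, 172.5, 177.3, 214.6 and 216.2 CPM in mutants, again without overlap. It rose by 0.47 (SE 0.09, adjusted p = 0.0024), and summing close pairs gave 0.076. Reads of Prdx2 and its overlapping antisense neighbour Junb cannot be told apart without strand where they share sequence, which was 3.28% of the 75-base windows of Prdx2 transcripts. Junb had a log2 fold change of -0.08 (adjusted p = 0.76). Prdx3, in mitochondria, went from 60.5 ± 3.53 CPM (SD, n = 4) to 76.6 ± 1.37 CPM (SD, n = 5). Prdx5, found in mitochondria, peroxisomes and cytosol, went from 305.5 ± 7.2 to 400.9 ± 63.1 CPM, and the single-cysteine enzyme Prdx6 from 238.2 ± 13.8 to 283.6 ± 5.85 CPM. They rose by 0.34 (SE 0.06), 0.39 (SE 0.11) and 0.25 (SE 0.06). With the length offset they stayed called, at 0.18, 0.28 and 0.28 (adjusted p = 0.045, 0.048 and 0.0058). None kept its call with close pairs summed (adjusted p = 0.093, 0.16 and 0.22). The Prdx5 call was also lost without WT 1 and 2, without WT 3 and 4 or without mutants 4 and 5 (adjusted p = 0.069, 0.12 and 0.066), and that of Prdx6 without WT 3 and 4 (0.11). Prdx5 shares 13.9% of its transcript windows with the overlapping gene Trmt112, which was at -0.18 (adjusted p = 0.30).

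Prdx4 went the other way. It encodes the peroxiredoxin of the endoplasmic reticulum, where it uses peroxide made during disulfide formation and is abundant in cells that secrete much protein. Its level was 25.5, 21.6, 29.2 and 27.0 CPM in WT and 13.4, 16.5, 17.0, 17.5 and 17.0 CPM in mutants. No mutant library reached the lowest WT library. Prdx4 fell by 0.67 on the log2 scale (SE 0.11, adjusted p = 0.00087), and the call held with close pairs summed (adjusted p = 0.041) and with the length offset (-0.78, adjusted p = 0.00039). Markers of secretory cells fell with it, namely the acinar, plasma and B cell, goblet and Paneth lists given above. Between WT pairs the acinar sum rose from 40708.2 and 39764.9 CPM in WT 1 and 2 to 85829.6 and 85116.9 CPM in WT 3 and 4, while Prdx4 had a log2 ratio of 0.26. The part of these cells in the lower Prdx4 was not tested. By level per kilobase Prdx4 was the least abundant peroxiredoxin, with 12.3 CPM per kilobase in WT against 191.1 for Prdx1.

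Of the 3 glutathione peroxidases among the 37 genes, Gpx1 and Gpx4 were higher and the secreted form Gpx3 lower. Gpx1, the cytosolic peroxidase, held 328.4, 316.8, 305.9 and 311.5 CPM in WT and 404.7, 373.7, 382.9, 510.8 and 508.7 CPM in mutants. Gpx4, which reduces lipid hydroperoxides in membranes and guards against ferroptosis, held 405.2, 398.1, 402.9 and 381.9 CPM in WT and 636.0, 477.8, 498.6, 601.5 and 600.3 CPM in mutants. For both genes the genotypes did not overlap, and mutants 2 and 3 were the lowest mutant libraries. Gpx1 rose by 0.47 (SE 0.11, adjusted p = 0.0062) and Gpx4 by 0.50 (SE 0.09, adjusted p = 0.002). Their adjusted p was 0.13 and 0.072 once close pairs were summed. The Gpx1 call was also lost without WT 3 and 4 (0.066). With the length offset, both stayed called at smaller values, 0.30 for Gpx1 (adjusted p = 0.025) and 0.36 for Gpx4 (adjusted p = 0.0073). Of the transcript windows of Gpx4, 29.8% also occur in the pseudogene Gpx4-ps2, so its count is less certain.

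Gpx3 (ENSMUSG00000018339, chromosome 11, 54902453 to 54910377, plus strand, GRCm38) encodes the peroxidase secreted into plasma and extracellular space. Its level was 126.0, 132.7, 120.6 and 107.6 CPM in WT and 36.9, 53.8, 55.0, 31.6 and 32.9 CPM in mutants. The highest mutant library held 55.0 CPM and the lowest WT library 107.6 CPM. Gpx3 fell by 1.53 on the log2 scale (SE 0.17, adjusted p = 0.0001), the largest change among the 37 genes, and the call held with close pairs summed (-1.55, adjusted p = 0.0073). Mutants 2 and 3 kept more Gpx3 than the other mutants. No transcript window of Gpx3 is shared with another gene. Fibroblast, endothelial and macrophage markers fell as well, with median log2 fold changes of -1.41, -1.94 and -2.59, and their part in the lower Gpx3 was not tested.

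**Figure D3:**
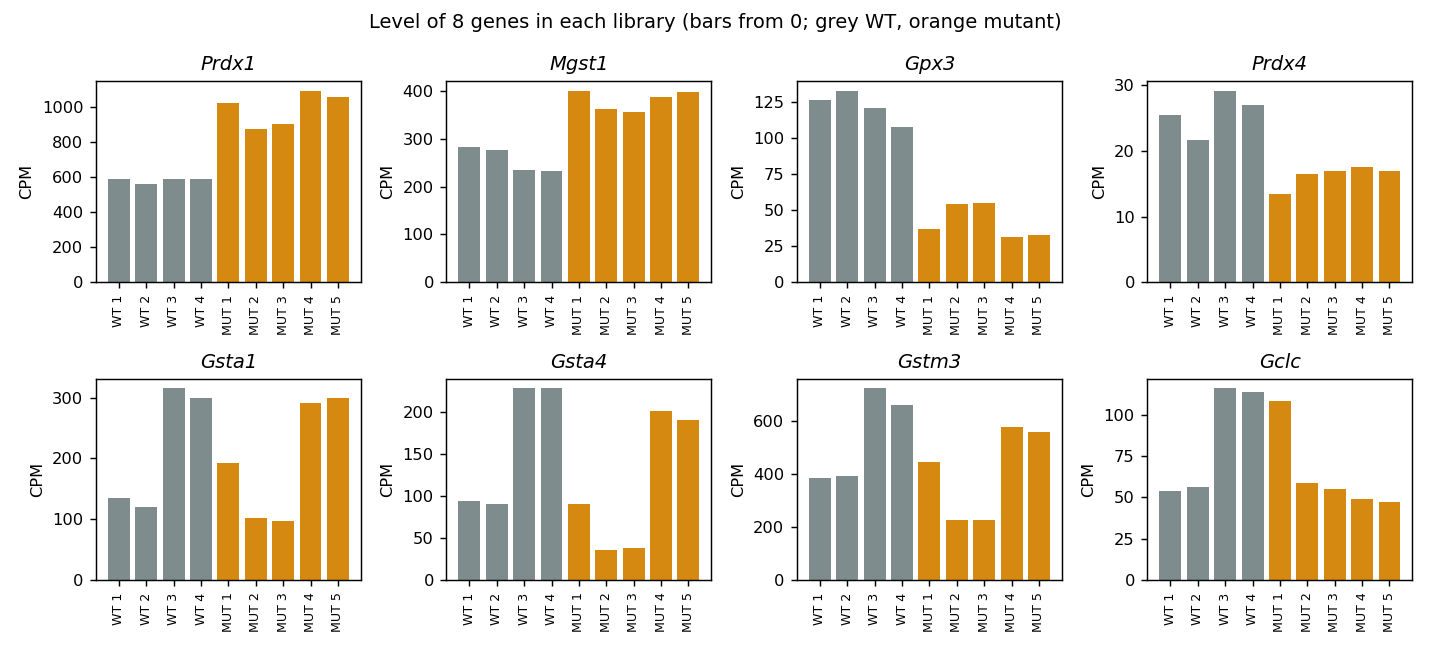
CPM of 8 genes in each of the 9 libraries (vertical axes from 0; grey bars WT 1 to 4, orange bars mutants 1 to 5). Prdx1 and Mgst1 are higher in every mutant library and Gpx3 and Prdx4 lower in every mutant library, while Gsta1, Gsta4 and Gstm3 are high in WT 3 and 4 and in mutants 4 and 5. Gclc is high in WT 3 and 4 and in mutant 1.

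The other enzymes acting on superoxide and peroxide were not called. Cytosolic Sod1 went from 347.3 ± 21.0 CPM (SD, n = 4) to 413.1 ± 63.1 CPM (SD, n = 5), at 0.25 on the log2 scale (SE 0.11, adjusted p = 0.10). Mitochondrial Sod2 was at 0.15 (SE 0.08, adjusted p = 0.18), and 16.2% of its transcript windows occur in other genes. Catalase (Cat), the peroxisomal enzyme that splits hydrogen peroxide, went from 501.2 ± 31.3 to 539.1 ± 80.8 CPM (adjusted p = 0.50). Sulfiredoxin (Srxn1), which repairs overoxidised peroxiredoxins, held 246.7, 236.9, 259.6 and 256.6 CPM in WT and 253.2, 249.9, 265.5 and 272.5 CPM in mutants 2 to 5, while mutant 1 alone stood at 354.0 CPM.

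Thioredoxin itself rose, but its reductase was not called. Txn1, the small disulfide reductase that feeds the peroxiredoxins, held 634.9, 623.9, 640.3 and 633.6 CPM in WT and 959.6, 778.3, 832.4, 1106.7 and 1113.7 CPM in mutants. The WT libraries differed little and every mutant library lay above them. Txn1 rose by 0.60 (SE 0.11, adjusted p = 0.002), and summing close pairs gave 0.074. It is 1051 bases long, and the length offset lowered the value to 0.40 (adjusted p = 0.0071). Per kilobase it was the most abundant of the 37 genes, at 602.5 CPM per kilobase in WT and 911.7 in mutants. Txnrd1, the selenoprotein that reduces thioredoxin, held 462.6 ± 83.8 CPM in WT and 431.9 ± 70.4 CPM in mutants (log2 fold change -0.10, SE 0.14, adjusted p = 0.64).

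Of the 3 membrane-bound GSTs, which also reduce lipid peroxides, 2 rose. Mgst1 (ENSMUSG00000008540, chromosome 6, 138140316 to 138156755, plus strand, GRCm38), found in the endoplasmic reticulum and outer mitochondrial membrane, held 282.1, 276.5, 234.6 and 231.5 CPM in WT. Mutants held 400.6, 361.2, 355.0, 386.6 and 397.8 CPM. Its lowest mutant library was above its highest WT library, and the WT pairs differed by less than the genotypes. Mgst1 rose by 0.57 (SE 0.08, adjusted p = 0.00043), and the call held with close pairs summed (0.039). Mgst3 rose by 0.33 (SE 0.10, adjusted p = 0.031), from 346.7 ± 30.5 CPM (SD, n = 4) to 436.3 ± 57.0 CPM (SD, n = 5). That call was lost with close pairs summed (0.22), without WT 3 and 4 (0.26), without mutants 4 and 5 (0.12) and without any of WT 3, WT 4 or mutants 1, 4 and 5 alone (0.057 to 0.095). Mgst2, which can also make leukotriene C4, was at 0.45 (SE 0.18, adjusted p = 0.077).

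Cytosolic GSTs showed no common direction, with 3 of 9 higher, 1 lower and a median log2 fold change of -0.15. Gstp1, the pi class enzyme, held 147.5, 146.1, 132.3 and 136.7 CPM in WT and 205.7, 174.8, 178.8, 214.6 and 219.8 CPM in mutants. It did not overlap between genotypes and rose by 0.50 (SE 0.09, adjusted p = 0.0011), and summing close pairs gave 0.056. Its neighbours Gstp2 and Gstp3 are close copies, and 29.2% of Gstp1 transcript windows occur in Gstp2, so reads may be split between them. Gsto1, an omega class enzyme with thioltransferase activity, held 684.4 ± 21.5 CPM in WT and 866.4 ± 88.9 CPM in mutants (0.34, SE 0.09, adjusted p = 0.011; 0.18 with close pairs summed, 0.073 without WT 1 and 2). The mu class gene Gstm6 was called by a small margin, at 0.30 (SE 0.10, adjusted p = 0.042). Its call was lost when any library other than mutant 2 or 3 was left out (0.075 to 0.11), when any close pair other than mutants 2 and 3 was (0.12 to 0.19), and with close pairs summed (0.21). Gstt1 was at -0.10 (SE 0.18) and Gstk1, the mitochondrial and peroxisomal kappa enzyme, at 0.21 (SE 0.18), and neither was called.

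Gsta3, an alpha class enzyme scarce in these samples, was called lower. It held 6.60, 5.22, 8.7 and 10.1 CPM in WT and 5.41, 3.23, 5.20, 5.60 and 4.50 CPM in mutants, and the genotypes overlapped. Its log2 fold change of -0.67 (SE 0.22, adjusted p = 0.036) rested on WT 3 and 4, without which it was -0.31 (adjusted p = 0.39). The call was also lost without WT 3, WT 4, mutant 2 or mutant 5 (0.095, 0.12, 0.063 and 0.066), without mutants 2 and 3 (0.097) or 4 and 5 (0.065), and with close pairs summed (0.18).

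Several alpha and mu class GSTs differed between library pairs of the same genotype. Gsta1 held 135.0 and 119.2 CPM in WT 1 and 2 but 315.3 and 299.2 CPM in WT 3 and 4. In mutants it held 101.4 and 97.5 CPM in numbers 2 and 3, 290.8 and 299.0 CPM in numbers 4 and 5, and 192.6 CPM in number 1. Thus WT 3 and 4 resembled mutants 4 and 5, and the genotypes overlapped. Gsta4, which clears the lipid peroxidation product 4-hydroxynonenal, held 93.8, 90.5, 228.0 and 227.9 CPM in WT and 90.0, 35.0, 38.2, 201.5 and 190.2 CPM in mutants. Gstm1 held 271.1, 265.0, 497.8 and 484.9 CPM in WT and 403.0, 186.9, 182.3, 366.4 and 372.1 CPM in mutants. Gstm3 held 386.1, 392.2, 725.3 and 660.3 CPM in WT and 444.4, 224.9, 227.5, 578.0 and 559.3 CPM in mutants. In all 4 genes mutants 2 and 3 were the lowest libraries. None was called, with log2 fold changes of -0.15 (SE 0.46), -0.53 (SE 0.62), -0.33 (SE 0.32) and -0.41 (SE 0.35). Of the transcript windows of Gsta1, 84.7% occur in other genes, most often Gm3776, so its reads may stand for several alpha class genes. This share was 21.6% for Gstm3, 11.7% for Gstm1 and 0% for Gsta4, so the counts of Gstm3 and Gstm1 are also less certain.

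A log2 ratio above 0.5 in both genotypes, for WT 3 and 4 over WT 1 and 2 and for mutants 4 and 5 over mutants 2 and 3, was found for these 4 of 37 genes (10.8%) and for 2.58% of all tested genes. The threshold was set after the values were seen. The related genes Gsta2, Gstm2 and Gstm4 passed it too, as did 7 of 38 genes of the list of NADPH supply and NRF2 targets (18.4%), namely Hmox1, Fth1, Akr1b8, Cbr3, Ephx1, Ugt1a6a and Entpd5. Gstm1, Gstm3 and Gstm6 lie together on chromosome 3 (GRCm38), between 107938847 and 108017973, yet Gstm6 had ratios of only 0.07 and 0.38. Of the 5 duodenal markers, Pdx1, Slc40a1 and Cybrd1 passed the same threshold. Onecut2, at 0.73 and 0.40, and Gata4, at 0.01 and 0.26, did not. The transcription factor Pdx1 held 16.7, 16.3, 47.4 and 45.1 CPM in WT and 12.6, 2.58, 2.01, 29.8 and 32.4 CPM in mutants, and the iron exporter Slc40a1 held 22.7, 22.9, 353.0 and 350.8 CPM and 11.3, 9.41, 7.44, 122.9 and 124.1 CPM. The acinar marker sum was also higher in mutants 4 and 5 (1234.9 and 1255.0 CPM) than in mutants 2 and 3 (220.5 and 232.6 CPM). In mutants that sum was mostly Reg1, so it says little about the other acinar markers. The part of these duodenal or acinar markers in the GST levels was not tested.

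**Figure D4:**
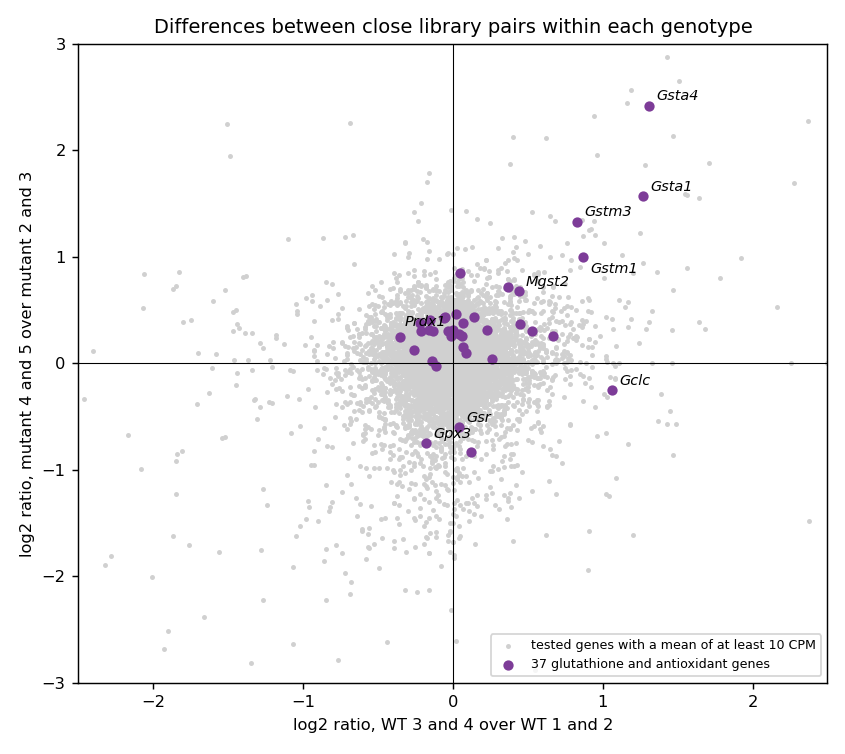
Log2 ratio of CPM of WT 3 and 4 over WT 1 and 2 (horizontal axis) and of mutants 4 and 5 over mutants 2 and 3 (vertical axis). Grey points are tested genes that average 10 CPM or more, and those beyond the axes are not drawn. Purple points are the 37 antioxidant genes. Gsta1, Gsta4, Gstm1 and Gstm3 lie at the upper right, and Gclc lies at 1.06 and -0.25.

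Of 6 genes of glutathione synthesis and recycling, 1 was called. Gclc, the catalytic subunit of glutamate-cysteine ligase, which sets the rate of synthesis, held 54.2, 56.4, 116.2 and 114.0 CPM in WT and 108.4, 59.0, 55.4, 49.2 and 47.4 CPM in mutants. WT 3, WT 4 and mutant 1 were high and the other 6 libraries close to each other, so the genotypes overlapped (log2 fold change -0.41, SE 0.34, adjusted p = 0.39). The value ranged from -0.71 without mutant 1 to -0.23 without WT 3 when 1 library was left out, was -0.85 without WT 1 and 2 and 0.20 without WT 3 and 4, and was called in none of these. The modifier subunit Gclm was at -0.06 (SE 0.11, adjusted p = 0.72). Glutathione synthetase (Gss) was called higher, at 0.24 (SE 0.08, adjusted p = 0.048), but lost the call when any library other than mutant 2 or 3 was left out (0.073 to 0.12), when any close pair other than mutants 2 and 3 was (0.12 to 0.19), and with close pairs summed (0.26). Gss overlaps the antisense gene Acss2 and shares 2.88% of its transcript windows with it. Acss2 had 29.8% as many reads as Gss and was itself higher, at 0.27 (adjusted p = 0.017). Glutathione reductase (Gsr) went from 131.7 ± 5.07 CPM (SD, n = 4) to 169.7 ± 34.9 CPM (SD, n = 5), and mutants 1 to 3, at 180.3, 199.3 and 203.6 CPM, stood above mutants 4 and 5, at 134.1 and 131.5 CPM (0.37, SE 0.13, adjusted p = 0.057). The brush border gamma-glutamyl transferase Ggt1 was at 0.18 (SE 0.10, adjusted p = 0.19). Slc7a11, the cystine importer, was close to the detection limit, with 1.18, 0.985, 1.3 and 1.05 CPM in WT and 0.637, 0.968, 0.473, 0.236 and 0.577 CPM in mutants, where 3 reads correspond to at most 0.191 CPM. The genotypes did not overlap, but the log2 fold change of -0.95 (SE 0.35) was not called (adjusted p = 0.058).

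Neither Nfe2l2 nor Keap1 was called, nor was the NRF2 target Nqo1. Nfe2l2 held 157.1, 153.1, 123.0 and 119.7 CPM in WT and 146.6, 137.4, 144.0, 171.0 and 164.1 CPM in mutants (0.14, SE 0.10, adjusted p = 0.32). Its inhibitor Keap1, which marks NRF2 for degradation, held 70.7, 67.4, 63.2 and 60.2 CPM in WT and 58.6, 50.4, 47.9, 60.0 and 62.2 CPM in mutants (-0.23, SE 0.09, adjusted p = 0.074). For both genes the genotypes overlapped. Keap1 was called lower with library size alone as scaling (-0.28, adjusted p = 0.019), without mutant 5 (-0.27, 0.048) and without mutants 4 and 5 (-0.32, 0.018). Nfe2l2 was called higher without WT 1 and 2 (0.33, adjusted p = 0.044). Nqo1, the quinone reductase often used to read out NRF2 activity, went from 42.5 ± 9.18 CPM (SD, n = 4) to 45.3 ± 5.49 CPM (SD, n = 5), at 0.09 on the log2 scale (SE 0.14, adjusted p = 0.65). Transcript levels do not measure the NRF2 protein, which is controlled mainly by its degradation.

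Among 59 other tested genes of glutathione and thiol redox chemistry, 19 were higher and 8 lower, with a median of 0.15. These are 32.2% and 13.6%, against 15.4% and 17.1% of all tested genes. With close pairs summed, 4 were higher and 3 lower (6.78% and 5.08%), against 2.23% and 6.78% of all genes. The largest rise was that of Gpx2, the glutathione peroxidase of the gastrointestinal epithelium, which is not among the 37 genes. Gpx2 held 126.0, 118.9, 84.8 and 79.8 CPM in WT and 516.0, 765.3, 789.2, 257.9 and 255.4 CPM in mutants. Every mutant library lay well above WT, and mutants 2 and 3 held the highest levels. Gpx2 rose by 2.33 (SE 0.42, adjusted p = 0.0031), and summing close pairs gave 0.061. The methylglyoxal enzyme Glo1 (0.46, SE 0.06), mitochondrial thioredoxin Txn2 (0.44, SE 0.06), the cysteine-forming enzyme Cth (0.37, SE 0.06), the pi class GST Gstp3 (0.84, SE 0.13) and the mitochondrial glutathione carrier Slc25a39 (0.37, SE 0.06) also rose, and Glo1, Txn2 and Gstp3 kept their calls with close pairs summed (adjusted p = 0.042, 0.047 and 0.041).

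The lower genes of that list included Cbs, the first enzyme of transsulfuration, at -5.85 (SE 0.42), with 10.5 ± 4.76 CPM in WT and 0.175 ± 0.0897 CPM in mutants. The log2 ratio of Cbs between pairs was 1.16 in WT, where the acinar sum was also higher in WT 3 and 4. Mutants 1 to 5 held 4, 5, 3, 2 and 1 reads of Cbs, too few to compare pairs. The part of acinar cells in the lower Cbs was not tested. Ggt5, which cleaves leukotriene C4, was at -1.34 (SE 0.14), the exporter Abcc4 at -1.82 (SE 0.23), the endoplasmic reticulum peroxidase Gpx7 at -1.02 (SE 0.21) and Sesn3 at -0.37 (SE 0.10). Cbs, Ggt5 and Abcc4 kept their calls with close pairs summed (adjusted p = 0.0014, 0.01 and 0.014). Txnip, which binds and inhibits thioredoxin, was at -0.39 (SE 0.13, adjusted p = 0.044), a call lost with close pairs summed (0.31).

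Of 38 tested genes of NADPH supply and other NRF2 targets, 8 were higher and 4 lower, with a median of 0.02. These are 21.1% and 10.5%, against 15.4% and 17.1% of all tested genes. With close pairs summed 1 of 39 was higher and 1 lower (2.56% each), against 2.23% and 6.78%. The higher ones included malic enzyme Me1 (0.65, SE 0.10), phosphogluconate dehydrogenase Pgd (0.35, SE 0.06), the aldehyde reductase Akr1a1 (0.34, SE 0.08), biliverdin reductase Blvra (0.49, SE 0.13) and transketolase Tkt (0.32, SE 0.09). The autophagy receptor Sqstm1 fell by 0.60 (SE 0.08) and the haem transporter Slc48a1 by 0.77 (SE 0.19). Glucose-6-phosphate dehydrogenase (G6pdx) was at -0.22 (SE 0.08, adjusted p = 0.041; 0.36 with close pairs summed). Me1 and Sqstm1 kept their calls with close pairs summed (adjusted p = 0.031 and 0.048). Hmox1, haem oxygenase 1, an NRF2 target that macrophages also express, held 6.72, 7.01, 17.7 and 14.9 CPM in WT and 5.09, 2.69, 1.24, 3.77 and 4.16 CPM in mutants. It fell by 1.77 on the log2 scale (SE 0.40, adjusted p = 0.007), and summing close pairs gave 0.075.

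Pla2g12b itself held 90.1 ± 15.7 CPM (SD, n = 4) in WT against 120.9 ± 15.1 CPM (SD, n = 5) in mutants. The log2 fold change was 0.42 (SE 0.13, adjusted p = 0.023). WT 1 to 4 held 103.1, 104.2, 77.5 and 75.6 CPM and mutants 1 to 5 held 133.8, 102.3, 106.9, 129.2 and 132.4 CPM, so the genotypes overlapped. The level of a transcript does not show an amino acid change, so it does not check the genotype labels.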

How the data were processed

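The table deposited by the authors holds raw counts of reads in each gene for 9 libraries, with gene length and position. Per the labels' protocols, polyadenylated RNA was primed with random hexamers and second strands were made with dTTP, so strand is not marked. Per the submitters' processing notes, the tools included HISAT2 2.0.5 and featureCounts 1.5.0-p3. These notes name GRCh37, hg19 and mm39, but gene coordinates in the table are those of GRCm38. How reads shared by several genes were handled is not stated in the labels.

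Counts of all genes were compared between genotypes by edgeR 4.0.16 under R 4.3.3, using its quasi-likelihood test (TMM, default expression filter, robust dispersion, genotype alone), and p-values were adjusted by Benjamini-Hochberg over 15416 genes. A call is an adjusted p under 0.05. The SE is the log2 fold change divided by the root of the test statistic. CPM use TMM-scaled library sizes, under which 3 reads are 0.122 to 0.191 CPM, and such floors cover counting error only. Windows of 75 bases of GENCODE M21 transcripts were searched for exact matches in transcripts of other genes. Steps were tested on simulated data.

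The 37 genes and all lists were chosen with earlier results of these data known. Named are all 37 genes, up to 5 called genes per list and direction by smallest p, and Gpx2, Hmox1, Txnip and Pla2g12b. Gsta2, Gstm2, Gstm4, Fth1, Akr1b8, Cbr3, Ephx1, Ugt1a6a, Entpd5, Pdx1 and Slc40a1 were chosen after their values were seen. Zg16 was left out of the acinar sum because goblet cells express it. Trim16l was not matched. Alternatives were other scaling, filters, DESeq2 1.42.0, voom of limma 3.58.1, mouse number as a block, a loess offset for gene length, removal of acinar and immunoglobulin genes, and changes to the close pairs.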

Additional observations from a re-analysis of the deposited data

Results flagged for a closer look

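Among 74 groups of libraries (37 genes in each genotype), 4 held a library far from the others by Dixon's test. Chance flags about 1 in 20 groups. Mutant 1 accounted for 3 of them. It held 108.4 CPM of Gclc, against 47.4 to 59.0 CPM in the other mutants, 354.0 CPM of Srxn1, against 249.9 to 272.5 CPM, and 13.4 CPM of Prdx4, against 16.5 to 17.5 CPM. WT 2 held 561.1 CPM of Prdx1, against 587.0 to 590.0 CPM in the other WT libraries. In no case was the direction of the genotype difference changed by leaving that library out. With close pairs among the libraries, values of 1 pair count as near neighbours, which Dixon's test does not allow for.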

How the results depend on the processing

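With close pairs summed, the counts called higher and lower were 2 and 2 for the 37 genes (14 and 3 in the main comparison), 4 and 3 for related redox genes (19 and 8), 1 and 1 for NADPH and NRF2 target genes (8 and 4), and 385 and 1173 for all genes (2369 and 2634). That fit has fewer units. With the length offset as well, chosen after the data were seen, they were 1 and 2, 1 and 3, 1 and 0, and 294 and 1142. In the voom fit where pairs formed a random block, 3 related genes were lower, 4 NADPH and NRF2 target genes higher, and 1172 and 1644 of all genes higher and lower. Without WT 3 and 4, 8 of the 37 genes were higher (21.6%). Of the NADPH and NRF2 target genes, 5 were then higher and 1 lower (13.2% and 2.63%). Of all genes, 1451 were then higher and 1975 lower (9.1% and 12.4%). Without WT 1 and 2, 8 NADPH and NRF2 target genes were lower (21.1%), beside 13.8% of all genes.

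Leaving out 1 library gave 11 to 16 of the 37 genes higher and 2 to 3 lower, 16 to 20 related genes higher and 5 to 9 lower, and 5 to 8 NADPH and NRF2 target genes higher and 3 to 5 lower, beside 1778 to 2280 of all genes higher and 2271 to 2609 lower. Mouse numbers are not stated to pair WT with mutant libraries. The correlations of same-numbered deviations were 0.081, 0.21, -0.18 and 0.20. These deviations also carry the close pairs, so they cannot decide whether numbers pair libraries. With the mouse number as a block, 12 of the 37 genes were higher and 3 lower, 16 and 6 related genes, 6 and 2 NADPH and NRF2 target genes, and 1711 and 2213 of all genes (11.2% and 14.5%). The block changed the calls of Gstm6, Mgst3 and Gss (lost) and Gsr (gained). Calls were gained for Gsr also with no expression filter, with DESeq2, and without mutant 4, mutant 5 or both. They were gained without mutants 2 and 3 for Gstk1, Mgst2, Ggt1, Sod1, Cat and Slc7a11, all but Cat also with voom and quality weights. Without mutant 2 alone, Mgst2, Sod1 and Slc7a11 were called, and Mgst2 also without mutant 3 and with DESeq2. Voom with quality weights also called Sod2. Depth limits Slc7a11 most, with 135 reads over all libraries.

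None of the 17 called genes among the 37 changed direction in any alternative. Of the others, without WT 3 and 4 the log2 fold change was 0.62 for Gsta1, 0.26 for Gsta4, 0.17 for Gstm1, 0.06 for Gstm3, 0.10 for Gstt1, 0.20 for Gclc, 0.06 for Gclm, 0.14 for Txnrd1 and -0.03 for Nfe2l2. Without mutants 2 and 3 it was 0.27 for Gsta1, 0.01 for Gsta4 and Gstm1, 0.15 for Gstt1, 0.08 for Gclm and 0.06 for Txnrd1. Without mutants 4 and 5 it was -0.08 for Gstk1 and -0.00 for Cat, and without WT 1 and 2 it was -0.15 for Nqo1. Voom with quality weights gave 0.23 for Gsta1 and 0.05 for Gstt1. The length offset gave 0.02 for Gclm and -0.07 for Nqo1, and with close pairs summed as well 0.07 for Gclm, -0.01 for Nqo1 and 0.06 for Txnrd1. Leaving out 1 library gave -0.35 to 0.09 for Gsta1, -0.18 to 0.00 for Gstt1 and -0.13 to 0.00 for Gclm. The cause was not tested. Scaling by relative log expression or library size alone reversed none of the 37, and removal of acinar and immunoglobulin genes ended only the call of Gss.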
